A study of Mus musculus with 4 samples.

Results

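The p53 pathway was described through 9 genes in single cells of MC38 tumours: Trp53, Cdkn2a, Mdm2, Cdkn1a, Ccng1, Bax, Phlda3, Trp53inp1 and Zmat3, taken by name from the 26172 genes listed in at least 1 of 2 cDNA libraries. Each gene was read over deep barcodes, meaning cell barcodes with 5000 or more UMIs (unique molecular identifiers, which count captured RNA molecules) and no UMI of Cd3e, Cd3d, Cd3g or Ptprc. These numbered 6705 of 7691 barcodes (87.2%) in the wild-type library and 9671 of 11087 (87.2%) in the humanized library. MC38 is a mouse colon carcinoma cell line. It was inoculated into untreated mice of 10 weeks that were wild-type (genotype WT) or FOXP3 humanized, and tumours were taken on day 20. Both genotypes received the same MC38 line, so the difference labelled is one of the host. Each genotype had 1 cDNA library, how many mice it pools was not stated, and genotype, library and mouse cannot be told apart. No test between genotypes was therefore made and no p-value is given.

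p53, the protein of Trp53, is a transcription factor that is held low by the ubiquitin ligase Mdm2 and is stabilised after DNA damage or oncogene activity. The Arf protein of Cdkn2a blocks Mdm2, and its other product, p16Ink4a, inhibits the kinases Cdk4 and Cdk6. Active p53 switches on genes for cell cycle arrest (Cdkn1a, which encodes p21), for cell death (Bax), for restraint of Akt signalling (Phlda3) and for its own inhibitor Mdm2. Control of p53 acts largely on the protein, so Trp53 mRNA is a poor measure of p53 activity and the mRNA of its targets is usually read in its place.

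The labels call the cells immune cells isolated on Percoll, and the deep barcodes did not carry the markers of such cells. Summed over deep barcodes, 8 T cell markers gave 2.42 CPM (UMIs scaled to a total of 1000000) in the wild-type library and 2.18 CPM in the humanized one, 9 myeloid markers 5.38 and 5.66 CPM, and 5 B and NK cell markers 0.108 and 0.114 CPM. The absence of CD3 and Ptprc UMIs comes from how deep barcodes were chosen, which used no other marker. A list of 6 epithelial markers summed to 5.74 and 3.11 CPM, but in the wild-type library the barcode highest for each gene alone held 72.1% of the Krt8, 78.1% of the Krt19, 91.2% of the Krt18 and 91.3% of the Epcam UMIs. Krt14, a keratin of basal epithelia outside that list, was at 284 CPM or more in every class of barcodes split by Phlda3, described below. A list of 8 fibroblast markers summed to 128 and 144 CPM. Most of this came from Col1a2 (8756 and 11511 UMIs) and Dcn (4710 and 4483 UMIs). Of the same list, Lum had 1 and 0 UMIs, Fap 4 and 2, and Acta2 22 and 20. The deep barcodes are called by their rule here and given no cell type. They held 129144384 wild-type and 140575771 humanized UMIs, with medians of 16866 and 12522 UMIs per barcode. Barcode names are running labels without sequence, so the 1551 names found in both libraries do not show shared cells. Every interval given is at 95% and covers counting error alone, and a level in CPM is not scaled for transcript length, so levels are compared across libraries and cell groups, not between genes.

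The sequence that p53 binds consists of a pair of 10-base half-sites. RefSeq promoter windows (GRCm38.p6) of the 250 bases before a gene's start were matched for 7 of the 9 genes, giving 9 windows. Of these, 5 held a strict match to the p53 half-site consensus, which reads the same on both strands: 1 each before Trp53, Mdm2, Bax and Ccng1, and 2 before the upstream start of Cdkn1a. Among all 32851 windows of this length, 7.13% held a half-site. The upstream Cdkn1a window, chr17:29090729-29090978 on the plus strand, was the sole member window with a pair of strict matches, 12 bases apart. Of all windows, 0.0639% held such a pair with at most 13 bases between. The 10 bases that directly follow the second Cdkn1a half-site differ from the consensus by 1 base, so they are not marked. Which of these stretches p53 binds was not tested. The windows before the other Cdkn1a start, both Cdkn2a starts and Phlda3 held none, which says only that these letters are not in these windows. Sequences are shown for Cdkn1a, Bax (chr7:45466899-45467148, minus strand) and Phlda3 (chr1:135765835-135766084, plus strand), because these are the targets with enough UMIs per cell for the cell-to-cell comparison further on. Each runs 5′ to 3′, and capitals mark half-sites.
Cdkn1a: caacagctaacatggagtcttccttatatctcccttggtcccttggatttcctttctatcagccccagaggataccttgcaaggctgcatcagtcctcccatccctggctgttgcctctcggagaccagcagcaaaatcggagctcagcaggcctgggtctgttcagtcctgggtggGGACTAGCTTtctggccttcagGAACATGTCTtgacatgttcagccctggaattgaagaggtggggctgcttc
Bax: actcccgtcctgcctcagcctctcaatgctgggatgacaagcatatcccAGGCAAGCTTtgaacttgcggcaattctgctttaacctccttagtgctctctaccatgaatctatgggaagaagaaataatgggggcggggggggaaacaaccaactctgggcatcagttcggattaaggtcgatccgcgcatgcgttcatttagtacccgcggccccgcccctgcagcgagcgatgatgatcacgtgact
Phlda3: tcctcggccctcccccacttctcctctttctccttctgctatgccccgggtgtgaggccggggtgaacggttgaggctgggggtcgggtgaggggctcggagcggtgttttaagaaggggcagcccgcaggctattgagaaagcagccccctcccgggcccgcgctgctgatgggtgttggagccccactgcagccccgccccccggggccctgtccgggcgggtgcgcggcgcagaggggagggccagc

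Trp53 mRNA was present in most deep barcodes and differed little between the libraries. It measured 209 CPM (206 to 211, 26989 UMIs) in the wild-type library and 203 CPM (201 to 206, 28568 UMIs) in the humanized one. At least 1 Trp53 UMI was found in 90.5% and 85.2% of deep barcodes. Such shares depend on the UMIs per barcode, whose median was higher in the wild-type library. With each deep barcode thinned at random to 5000 UMIs, the Trp53 shares were 62.8% and 60.3%. The log2 ratio of humanized over wild-type was -0.04 (-0.06 to -0.02).

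Cdkn2a, the gene of p16Ink4a and Arf, had 0 UMIs in the deep barcodes of both libraries. A count of 0 in this many UMIs allows at most 0.0286 CPM in the wild-type library and 0.0262 CPM in the humanized one by the upper end of the exact interval. Cdkn2a was counted elsewhere in the files: 1 wild-type and 3 humanized barcodes outside the deep set had 1 UMI each. The wild-type barcode had 1708 UMIs, 6 of them from CD3 genes. Those of the humanized library had 5346, 5546 and 16777 UMIs, with 8, 14 and 3 CD3 UMIs, which kept them out of the deep set. All 4 Cdkn2a UMIs thus lay in barcodes with T cell transcripts.

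The genes next to Cdkn2a on chromosome 4 split into those with and without reads. Cdkn2b, which encodes the Cdk4 and Cdk6 inhibitor p15Ink4b and lies directly beside Cdkn2a, also had 0 UMIs in deep barcodes of both libraries, with 3 UMIs in other humanized barcodes. Dmrta1, the next gene on that side, had 0 wild-type UMIs and 1 humanized UMI. Mtap, which makes an enzyme of methionine salvage and is the neighbour on the other side, measured 89.5 CPM (11563 UMIs) in the wild-type library and 88.8 CPM (12488 UMIs) in the humanized one. Further out, Elavl2 had 193 and 138 UMIs, and Caap1 and Plaa were at 19.3 and 70.2 CPM in the wild-type library and 14.5 and 68.9 CPM in the humanized one. The stretch at or near 0 UMIs therefore ran from Cdkn2a through Dmrta1 and Zfp352, in an order taken from RefSeq. Beyond Mtap the interferon genes were also low or unlisted, at 0 to 18 UMIs each, and Klhl9 had 3569 and 3077. Whether these genes are present in the genome of the cells was not tested.

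**Figure D1:**
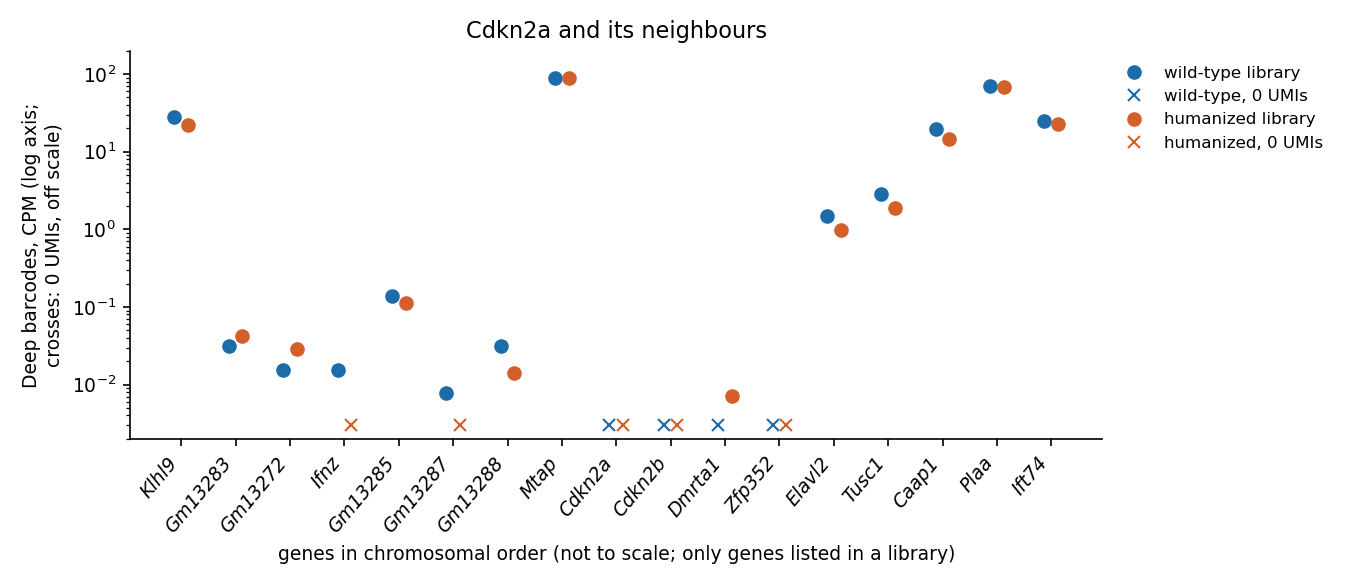
Level of Cdkn2a and of genes to either side in deep barcodes, in CPM on a log axis, with genes in chromosomal order and not to scale. Circles are levels, crosses mark 0 UMIs and sit off the scale. Cdkn2a and Cdkn2b are at 0 in both libraries, between Mtap (89.5 and 88.8 CPM) and Elavl2 (193 and 138 UMIs).

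Mdm2, the ligase that marks p53 for degradation and is itself switched on by p53, measured 17.1 CPM (16.4 to 17.9) in the wild-type library and 15.6 CPM (14.9 to 16.3) in the humanized one. Its log2 ratio was -0.14 (-0.22 to -0.05). Mdm2 UMIs were seen in 25.7% and 19.2% of deep barcodes, and no barcode held more than 6. After thinning to 5000 UMIs per barcode the shares were 8.05% and 7.25%.

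Cdkn1a, whose p21 protein inhibits cyclin-dependent kinases, stood at nearly the same level in the libraries. It measured 120 CPM (118 to 122) in the wild-type library and 121 CPM (119 to 122) in the humanized one, a log2 ratio of 0.00 (-0.03 to 0.03). Cdkn1a UMIs were found in 70.6% and 64.6% of deep barcodes, with up to 52 UMIs in 1 wild-type barcode. After thinning to 5000 UMIs per barcode the shares were 38.7% and 39.1%. Ccng1, which encodes cyclin G1, had 1676 UMIs (12.4 to 13.6 CPM) and 1661 UMIs (11.3 to 12.4 CPM), a log2 ratio of -0.14 (-0.23 to -0.04).

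Of the genes tied to cell death and survival signalling, Bax and Phlda3 were the ones with many UMIs. Bax, which opens the outer mitochondrial membrane in apoptosis, measured 131 CPM (129 to 133) in the wild-type library and 142 CPM (140 to 144) in the humanized one. The log2 ratio was 0.11 (0.08 to 0.14). Phlda3, a repressor of Akt, measured 140 CPM (138 to 142) and 138 CPM (136 to 140), with a log2 ratio of -0.02 (-0.04 to 0.01). Zmat3, a zinc finger protein that binds RNA, was at 6.81 CPM (6.37 to 7.28) and 7.54 CPM (7.09 to 8.01), a log2 ratio of 0.15 (0.02 to 0.28).

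Trp53inp1, which encodes a nuclear protein that promotes p53 activity, was nearly silent and was the member farthest apart between the libraries. It had 96 wild-type UMIs (0.743 CPM, 0.602 to 0.908) and 59 humanized UMIs (0.420 CPM, 0.319 to 0.541). The log2 ratio was -0.82 (-1.32 to -0.34). The barcode with the most Trp53inp1 UMIs held 4 of the wild-type UMIs.

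A gene was counted as apart when its CPM differed at least 1.5-fold, among genes with 100 or more UMIs over both libraries. By this rule 1 of the 8 measured members, Trp53inp1, was lower in the humanized library and none was higher, where 12.9% of all 13728 measured genes were lower and 0.634% higher, 13.5% in all. The median gene itself stood at -0.21 on the log2 scale, and the median of the 8 members at -0.03. Set relative to the median gene, Trp53inp1 stood at -0.61 (-1.11 to -0.13) and remained past the fold, where 6.32% of all genes were lower, 1.52% higher and 7.85% either. On that scale the signs of Trp53, Mdm2, Ccng1 and Phlda3 turned positive, at 0.17, 0.07, 0.08 and 0.19, and Cdkn1a, Bax and Zmat3 stood at 0.21, 0.32 and 0.36. Ribosomal protein genes took 31.1% of wild-type and 33.1% of humanized deep UMIs, and their part in the shift of the median gene was not tested.

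The rest of the pathway gave a like picture between the libraries. Of 39 other p53 targets, 36 were measured, with a list median of -0.14. In the humanized library 0 of them were higher and 2 were lower, against 0.634% and 12.9% of all 13728 measured genes. The lower ones were Trp53cor1, a long noncoding RNA gene near Cdkn1a, with 1655 and 803 UMIs (-1.17), and Ddb2, a DNA damage recognition gene, with 1518 and 921 UMIs (-0.84). The counting strand is not known here, so reads of noncoding or overlapping genes could be assigned in part to a neighbour. The death gene Bbc3 (Puma) measured 16.1 CPM in both libraries, while Pmaip1 (Noxa) had 10 and 12 UMIs and Perp 2 and 1.

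Of 20 p53 regulators 19 were measured, to be read against the same 0.634% of all genes higher and 12.9% lower. Of the 19, 0 were higher and 2 were lower, the acetyltransferase gene Ep300 (-0.77) and the p53 relative Trp73 (-0.69, 92 and 62 UMIs). Relative to the median gene neither passed the fold, while the death receptor gene Fas (0.73) among targets and the ribosomal gene Rpl11 (0.60) among regulators were then higher, as were 1.52% of all genes. The Mdm2 partner gene Mdm4 measured 15.3 and 11.8 CPM. Among the other Bcl2 family genes 9 of 12 were measured and none was apart: the killer genes Bok and Bak1 were at 99.0 and 33.8 CPM in the wild-type library and 102 and 28.2 CPM in the humanized one, and the survival gene Mcl1 at 102 and 82.8 CPM. Of 6 other Cdk inhibitor genes, 4 were measured and none was apart, while Cdkn2b and Cdkn1c were at 0 and at 7 and 8 UMIs. Of all measured genes 13.5% were apart, so counts of 0 in lists this short say little.

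Barcodes with CD3 transcripts gave another setting for the same genes. These were shallow barcodes with 2 or more CD3 UMIs and under 5000 UMIs in all, 84 in the wild-type library and 134 in the humanized one, with 161821 and 235931 UMIs in total. Trp53inp1 measured 49.4 CPM (21.3 to 97.4, 8 UMIs) and 38.1 CPM (17.4 to 72.4, 9 UMIs) there, a log2 difference of 6.06 (4.80 to 7.09) and 6.51 (5.31 to 7.53) over deep barcodes. Mdm2 was higher in CD3 barcodes by 2.11 (1.16 to 2.92) and 1.58 (0.58 to 2.42), and Bax by 1.08 and 0.89 on 45 and 62 UMIs. Phlda3 was lower by a log2 difference of -2.18 (-3.80 to -0.95) and -2.22 (-3.53 to -1.18), on 5 and 7 UMIs.

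Trp53 was also lower in CD3 barcodes of both libraries, at -0.91 (-1.66 to -0.25) and -0.94 (-1.57 to -0.38), on 18 and 25 UMIs. The remaining members were less clear there. Cdkn1a stood at -0.70 (-1.65 to 0.11) and -0.74 (-1.52 to -0.06). Ccng1 differed between the libraries, at 2.10 (0.97 to 3.03) on 9 UMIs and 0.11 (-2.17 to 1.66) on 3 UMIs, and Zmat3 rested on 1 and 5 UMIs. CD3 and deep barcodes differed widely in general: 68.2% of 9179 wild-type and 67% of 9638 humanized genes were at least 1.5-fold apart, with 40.8% and 39.3% higher and 27.4% and 27.6% lower in CD3 barcodes. Fibroblast markers in CD3 barcodes stood at 9.64% and 11.7% of their deep level, on 2 and 4 UMIs. The part of free RNA in the members' values there was not tested.

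**Figure D2:**
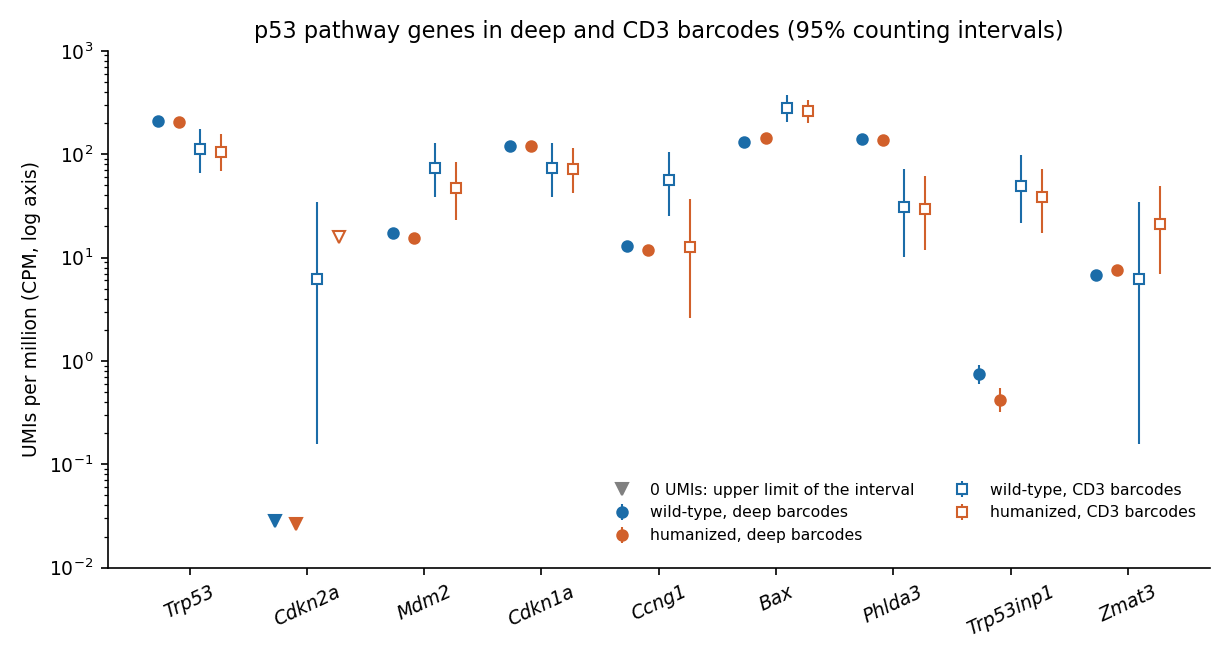
Level of each gene in CPM on a log axis, in deep barcodes (filled circles) and CD3 barcodes (open squares) of each library, with 95% counting intervals. Triangles mark 0 UMIs and sit at the upper end of the interval. Trp53inp1 is at 0.743 and 0.420 CPM in deep barcodes against 49.4 and 38.1 CPM in CD3 barcodes.

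Cdkn1a stops the cell cycle, and Mki67 marks cycling cells, so the members were compared by Mki67 level. Every deep barcode was thinned to 5000 UMIs, and barcodes were split into those with 0, with 1 to 2 and with 3 or more Mki67 UMIs. The classes held 5589, 1055 and 61 wild-type and 8122, 1491 and 58 humanized barcodes. As a check of the split, all 18 measured G2/M genes were at least 1.5-fold higher in the top class than in the class with 0 in both libraries, with list medians of 1.87 and 1.90.

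No member moved past the fold in the same direction in both libraries. For all genes that share was not counted, so this is not read as a result about the members. Between the top class and the class with 0, Cdkn1a was at 148 against 116 CPM in the wild-type library, a log2 difference of 0.36 (0.16 to 0.55). In the humanized library it was at 107 against 119 CPM, a difference of -0.16 (-0.45 to 0.12). The intervals of these differences did not overlap, and 36 of the 217 wild-type UMIs in the top class (16.6%) came from 1 barcode. The opposite signs depended on the bound: with 2 or more Mki67 UMIs as the top class (285 and 322 barcodes) Cdkn1a stood at 0.27 and 0.06, and with 5 or more (2 barcodes in each library) at -0.32 and -1.93. Trp53 differed by 0.06 (-0.10 to 0.22) and -0.10 (-0.32 to 0.11), and Mdm2 by 0.34 (-0.23 to 0.85) and 0.04 (-0.80 to 0.76).

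Bax and Phlda3 were lower in the top class in both libraries. Within a single depth range with few barcodes, only Bax in the wild-type library kept that direction. Bax differed by -0.36 (-0.60 to -0.13) in the wild-type library and -0.12 (-0.38 to 0.14) in the humanized one, and Phlda3 by -0.27 (-0.49 to -0.05) and -0.09 (-0.36 to 0.16). Within barcodes of 10000 to under 20000 UMIs, a restriction chosen after seeing the data that left 21 and 27 barcodes in the top class, Phlda3 stood at 0.10 and 0.53 and Bax at -0.25 and 0.12. In each library 1 of 7 measured members was past the fold, where 25% of wild-type and 28.2% of humanized genes were (8.94% and 10.3% lower, 16.1% and 17.9% higher). These were Zmat3 in the wild-type (-0.73, -2.18 to 0.40, 6 UMIs) and Ccng1 in the humanized library (-0.70, -2.01 to 0.35, 7 UMIs), with intervals that included 0. In the other library Zmat3 stood at 0.49 and Ccng1 at -0.10. Trp53inp1 was not measured in this comparison, with 1 and 0 UMIs in the top class. The median gene stood at 0.11 and 0.08 in this comparison, and relative to it Trp53 in the wild-type library and Mdm2 in the humanized one turned negative, both at -0.05.

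The middle class, with 1 to 2 Mki67 UMIs, gave narrower intervals and small differences. Cdkn1a was higher than in the class with 0 by 0.25 (0.19 to 0.30) in the wild-type library and 0.12 (0.07 to 0.18) in the humanized one. Phlda3 was lower, at -0.24 (-0.30 to -0.18) and -0.15 (-0.20 to -0.09). Trp53 differed by 0.11 and 0.05 and Bax by -0.14 and -0.04. Of 7 members 0 were past the fold in either library, where 5.2% of wild-type and 4.28% of humanized genes were (3.65% and 3.26% higher, 1.55% and 1.02% lower).

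Depth moved with these differences. Barcodes of the middle class were deeper than those with 0 Mki67 UMIs, with medians of 20854 against 16214 UMIs in the wild-type library and 14672 against 12177 in the humanized one. Cdkn1a was higher in deeper barcodes, at 109 CPM under 10000 UMIs and 147 CPM from 40000 UMIs up in the wild-type library, and at 106 and 127 CPM in the humanized library. Phlda3 ran the other way, from 168 to 117 CPM and from 153 to 123 CPM. With further bounds at 20000 and at the 10000 and 40000 named, the Cdkn1a difference was 0.42, 0.27, 0.21 and 0.07 in the wild-type library and 0.20, 0.18, 0.04 and -0.29 in the humanized one, from shallow to deep. The Phlda3 difference was -0.38, -0.31, -0.17 and -0.06 in the wild-type library and -0.30, -0.10, -0.11 and -0.02 in the humanized one, below 0 in each range. The Cdkn1a difference was thus above 0 in all ranges but the deepest humanized one (-0.55 to -0.04), which held 30 barcodes of the middle class. The Cdkn1a interval included 0 in the deepest wild-type range (-0.06 to 0.20) and from 20000 to under 40000 UMIs in the humanized library (-0.05 to 0.13). The Phlda3 interval included 0 in the deepest range of both libraries (-0.21 to 0.08 and -0.27 to 0.22).

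**Figure D3:**
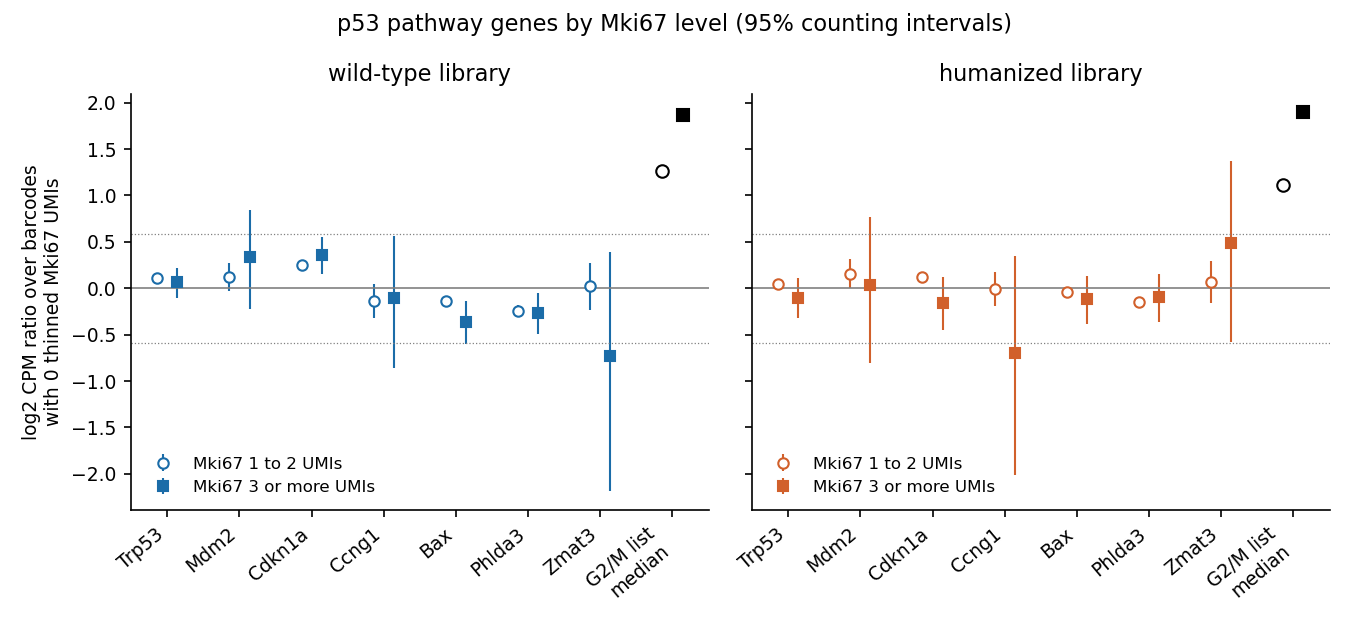
log2 ratio of CPM in barcodes with 1 to 2 (open circles) or 3 or more (filled squares) thinned Mki67 UMIs over barcodes with 0, for the 7 measured members, with 95% counting intervals and dotted lines at 1.5-fold. Black symbols give the median of 18 G2/M genes, 1.87 and 1.90 in the top class, while the members lie between -0.73 and 0.49.

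Other genes of the pathway were read by Mki67 level in the same way. Of the other Cdk inhibitor genes, Cdkn2c (p18Ink4c) was higher in the top class by 1.00 and 1.64, Cdkn2d (p19Ink4d) by 1.02 and 1.73, and Cdkn3 by 1.83 and 1.75. Of 35 and 34 measured other p53 targets, 7 and 6 were higher and 5 and 4 lower, counts to be read against the 16.1% and 17.9% of all genes that were higher and the 8.94% and 10.3% that were lower. The targets as a list were thus near the level of all genes. Those higher in both libraries included Ckap2 (1.77 and 1.65) and Gtse1 (1.78 and 1.77), which encode proteins of the mitotic spindle. Gadd45a, a stress gene, was lower by -0.59 and -0.60 and Tigar, a regulator of glycolysis, by -1.07 and -0.80. Of 18 measured regulators, 8 and 7 were higher and 1 and 2 lower against the same shares of all genes, the higher ones including the damage kinase gene Atr (1.19 and 0.74).

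Whether the targets varied together from cell to cell was read as the Pearson correlation of log1p counts over deep barcodes thinned to 5000 UMIs. The 21 pairs of the 7 targets had a median r of 0.0021 in the wild-type library (lowest pair -0.023, highest 0.054, n = 6705 barcodes) and -0.00051 in the humanized library (lowest pair -0.013, highest 0.046, n = 9671). Over all pairs of genes with a mean of at least 0.1 thinned UMIs, the median r was 0.0043 and 0.0055, and the central 95% ran from -0.036 to 0.044 and from -0.038 to 0.046. Barcodes of 1 library share that library and, after thinning, 1 depth, so these values describe the cells and carry no p.

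Some other gene lists did vary together in the same barcodes, and some did not. These lists were read over their genes with a mean of at least 0.1 thinned UMIs, a limit not put on the 7 targets. It left 15 of 18 G2/M genes in each library, and 11 and 12 of the 39 other p53 targets. The median r was 0.237 and 0.219 for G2/M genes, 0.195 and 0.221 for immediate early genes, 0.130 and 0.146 for heat shock genes and 0.107 and 0.110 for S phase genes. Hypoxia genes were lower, at 0.053 and 0.065. The median r was as low as that of the members for other p53 targets (0.0045 and -0.00082), p53 regulators (-0.00049 and -0.0022) and other Bcl2 family genes (0.0044 and -0.0012). Low counts weaken any correlation, and 4 of the 7 targets had a mean under 0.1 thinned UMIs. The other targets, Cdkn1a, Bax and Phlda3, had means of 0.577 to 0.724 in the wild-type library and 0.581 to 0.721 in the humanized one, above the median means of the G2/M genes used (0.212 and 0.215). Under the limit used for the other lists, these 3 targets had a median r of -0.00078 and 0.0039.

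Among these 3 targets the largest r was that of Bax and Phlda3, at 0.030 and 0.046. Both genes were detected in 1495 wild-type barcodes where independence gives 1454, and in 2329 humanized barcodes where it gives 2240. Cdkn1a and Phlda3 had an r of -0.023 and -0.0039, and Cdkn1a and Bax -0.00078 and 0.0039. Cdkn1a and Mdm2 had 0.0071 and 0.023, and values this near 0 in sparse counts are no finding. The highest wild-type value, Cdkn1a with Trp53inp1 at 0.054, rested on 19 barcodes with both genes, and was 0.012 in the humanized library. Trp53 mRNA itself had an r with Cdkn1a of 0.024 and -0.0048.

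**Figure D4:**
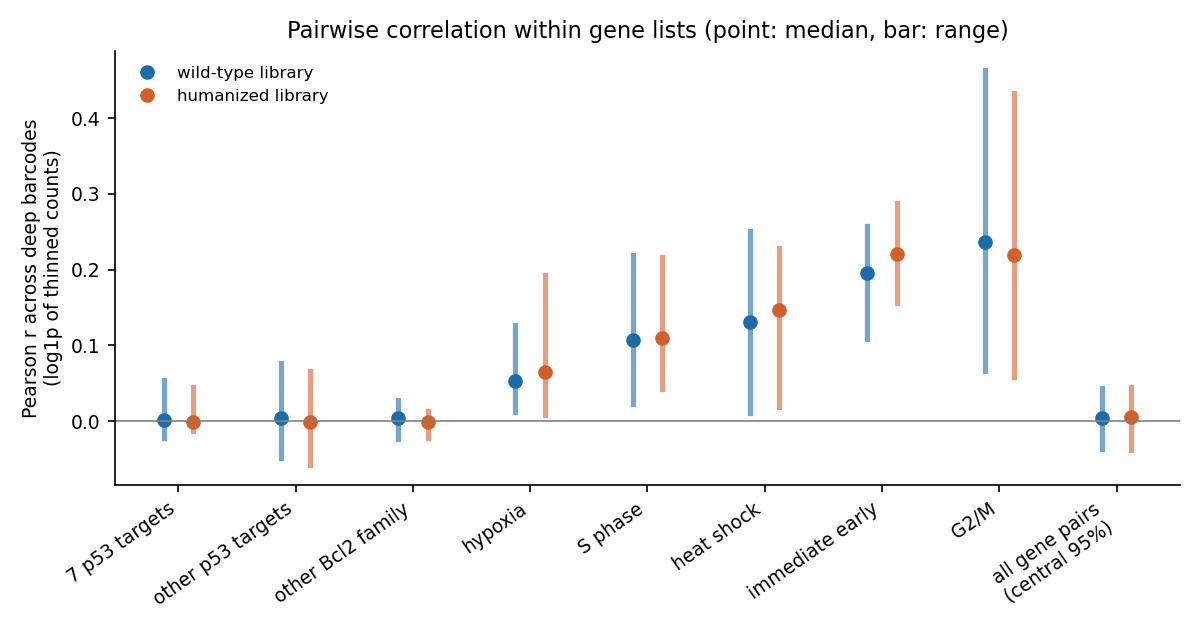
Pearson r between pairs of genes across deep barcodes thinned to 5000 UMIs, for the 7 p53 targets, other gene lists and all gene pairs. The other lists and all gene pairs hold only genes with a mean of at least 0.1 thinned UMIs, and the 7 targets have no such limit. Points are medians over pairs and bars run from the lowest to the highest pair, except for all gene pairs, where they hold the central 95%. The 7 p53 targets sit at 0.0021 and -0.00051, the other p53 targets at 0.0045 and -0.00082 and the G2/M genes at 0.237 and 0.219.

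Cdkn1a and Phlda3 each varied from cell to cell by more than counting noise gives. The Fano factor, the variance over the mean of thinned counts, is 1 for counting noise alone. It was 1.47 and 1.44 for Cdkn1a and 1.57 and 1.41 for Phlda3, against a median gene at 1.07 and 1.06. Cdkn1a was above 92.0% and 92.4% of genes and Phlda3 above 93.3% and 92.1%. These ranks are among 5093 and 4693 genes with a mean of at least 0.1 thinned UMIs. The median mean of those genes was 0.238 in both libraries, below the means of Cdkn1a and Phlda3. No ranking among genes of like mean was made, so the part of the mean count in these ranks was not tested. For Cdkn1a, 1.48% of wild-type and 1.40% of humanized barcodes held 4 or more thinned UMIs, where a Poisson count of the same mean gives 0.292% and 0.300%.

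Most other members lay closer to counting noise. Trp53 had a Fano factor of 1.10 and 1.16 and Bax of 1.06 and 1.10. Mdm2 stood at 1.02 and 0.999, Ccng1 at 1.04 and 1.02 and Zmat3 at 1.02 and 1.00, at mean counts too low to show much else. Trp53inp1 stood at 1.26 and 0.998, on a mean of 0.0045 and 0.0021 thinned UMIs.

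**Figure D5:**
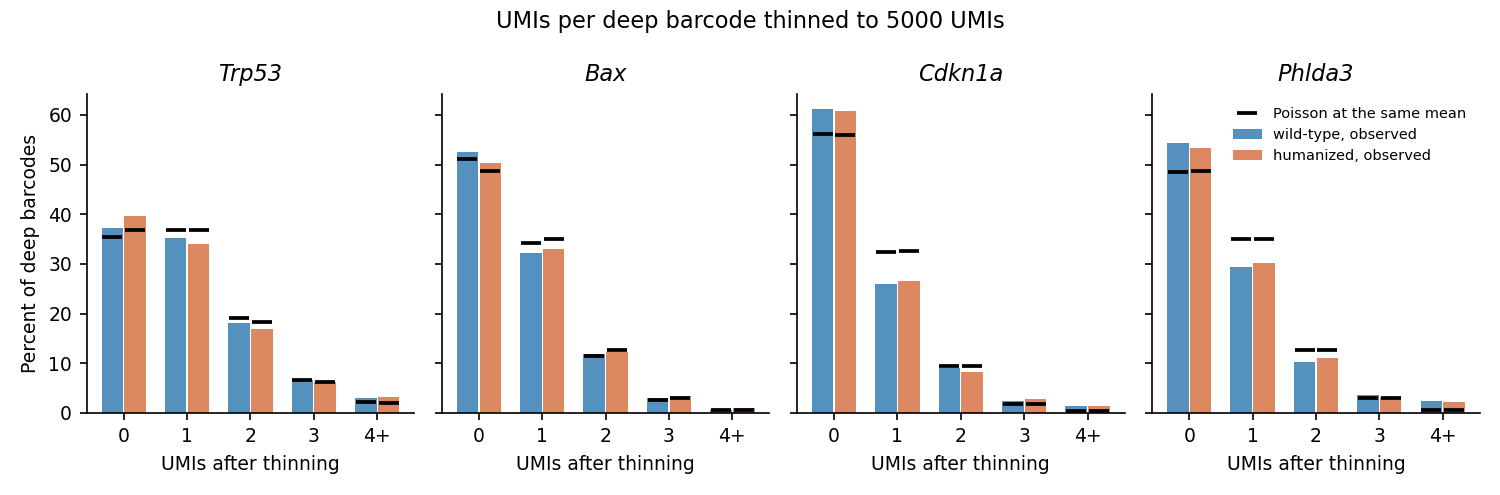
Percent of deep barcodes with 0, 1, 2, 3 and 4 or more UMIs of Trp53, Bax, Cdkn1a and Phlda3 after thinning to 5000 UMIs, with the Poisson share at the same mean as black dashes. Cdkn1a and Phlda3 have more barcodes at 0 and at 4 or more than the dashes, with 1.48% and 1.40% of barcodes at 4 or more Cdkn1a UMIs.

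The other members were also read by Cdkn1a level. In barcodes with 0 thinned Cdkn1a UMIs and in those with 3 to 5, Mdm2 was at 16.5 and 16.3 CPM in the wild-type library (4107 and 246 barcodes), and at 13.9 and 13.2 CPM in the humanized library (5886 and 394 barcodes). Bax was at 135 and 137 CPM and at 142 and 135 CPM. Phlda3 was at 149 CPM (144 to 154) and 120 CPM (101 to 140) in the wild-type library, where the intervals did not overlap, and at 145 and 150 CPM in the humanized one, and Trp53 at 203 and 222 CPM and at 201 and 213 CPM. Barcodes with 6 or more Cdkn1a UMIs numbered 9 and 14, and barcodes with 5, just under that bound, 20 and 28.

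The genes most like the members were ranked by r. With the summed targets, the 10 genes of highest r among 4641 were Sparc (0.183 and 0.177), Anxa2, Krt14, Crabp2, Crip1, Ecm1, Nupr1, Ly6a, Klf4 and Crip2. Sparc encodes a matrix protein and Krt14 a keratin of basal epithelia. Sparc, Anxa2, Krt14, Crabp2 and Crip1 also led the ranking for Phlda3 alone, which is part of the sum. Phlda3 alone had an r of 0.24 and 0.20 with Sparc, 0.237 and 0.188 with Krt14 and 0.213 and 0.186 with Anxa2. Krt14 measured 284, 391, 748 and 1730 CPM in wild-type barcodes with 0, 1 to 2, 3 to 5 and 6 or more thinned Phlda3 UMIs, and 337, 447, 722 and 1376 CPM in humanized ones. The top class held 37 and 34 barcodes and was shallower than the class with 0, with medians of 11364 against 17120 and 8721 against 12600 UMIs before thinning. Over the same classes Top2a, a gene of dividing cells, measured 193, 172, 135 and 43.2 CPM and 149, 138, 105 and 94.1 CPM. In the top class this rested on 8 and 16 thinned Top2a UMIs (18.7 to 85.2 and 53.8 to 153 CPM). Mki67 measured 45.1, 45.2, 31.2 and 10.8 CPM in wild-type barcodes, with 2 thinned UMIs in the top class. In humanized barcodes it measured 41.5, 39.1, 33.3 and 47.1 CPM, with 8 thinned UMIs in the top class, and so did not fall steadily.

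Cdkn1a had other companions. Its highest r was with Klf4, a transcription factor of epithelia (0.111 and 0.112), followed by Hsp90aa1, Sox9, Ndrg1 and Krt16. Klf4 measured 442, 530 and 608 CPM in wild-type barcodes with 0, 1 to 2 and 3 to 5 Cdkn1a UMIs, and 375, 450 and 529 CPM in humanized ones. Krt16, a stress keratin, measured 34.1, 51.5 and 157 CPM and 23.9, 32.8 and 61.4 CPM. In the 9 and 14 barcodes with 6 or more Cdkn1a UMIs, Klf4 was at 533 and 757 CPM. Krt16 was at 88.9 and 42.9 CPM there, on 4 and 3 UMIs, so the rise did not run on in each case. Trp53 was closest to Hnrnpab (0.106 and 0.105), Anp32b, Ptma, Stmn1 and Dut, and Bax to Sparc (0.073 and 0.091). Genes of lowest r with the summed targets, Trp53 and Cdkn1a were ribosomal protein genes, such as Rps12 with the summed targets (-0.146 and -0.162).

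The levels of the frequent members were also read on both sides of the bound of 5000 UMIs that defines deep barcodes. From 5000 to under 6000 UMIs, Cdkn1a was at 114 CPM (93.8 to 137) in the wild-type library and 114 CPM (103 to 126) in the humanized one. From 4000 to under 5000 UMIs, in barcodes that were not deep, it was at 111 CPM (88.5 to 138) and 119 CPM (101 to 141). Trp53 stood at 216 and 184 CPM above the bound and at 187 and 210 CPM below it, and Bax at 122 and 139 CPM above and 150 and 163 CPM below. Of these members Phlda3 had the widest gap, in the wild-type library, at 124 CPM (103 to 148) above and 177 CPM (148 to 210) below, and stood at 163 and 164 CPM in the humanized one.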

How the data were processed

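UMI counts of single cells were used as the authors deposited them, as whole-number counts for each gene in each barcode. PISA 1.0 made them, per the file headers. GRCm39 is the build named in the submitters' processing notes. For aligner, annotation, strand and cell calling, the method was not given in the sources used here, and oligo libraries were not used. The members and gene lists were chosen with earlier results of these data known.

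Counts were summed over deep barcodes per library and scaled to CPM. Intervals are exact Poisson for CPM, Clopper-Pearson for shares and exact conditional for ratios, at 95%. All intervals cover counting error only. Thinning drew 5000 UMIs per barcode without replacement. No doublet caller was run. Calls used a fold of 1.5 and a minimum of 100 UMIs. All 9 members were reported, and of other lists up to 5 genes of largest fold, with Gadd45a, Fas, Rpl11, Bbc3, Pmaip1, Perp, Mdm4, Bok, Bak1, Mcl1, Atr, Top2a and the neighbours of Cdkn2a named after their values were seen. Dcn, Lum, Fap and Acta2 were likewise named after their values were seen. Genes most like a member were the highest by the lower r of the libraries. Promoter windows were cut from RefSeq windows of GRCm38.p6 and used without coordinates of the files. Python 3.11.15, numpy 2.4.6, scipy 1.17.1 and pandas 2.3.3 were used, and the ratio and correlation steps were tested on simulated data.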

Additional observations from a re-analysis of the deposited data

How the results depend on the processing

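No paired analysis was possible because each genotype had 1 cDNA library, so no replicate could be left out either. Between the libraries, Trp53inp1 remained the 1 member apart under 8 of 9 alternatives, and with a fold of 2 the count was 0. The 8 include alternatives that could not differ here: the mitochondrial limit removed 0 barcodes, and leaving out the count filter added no member. Scaling by the median gene moved the other 7 measured members upward, as given with the results. By Mki67 level, the count of members past the fold the same way in both libraries was 0 in all but a pair of alternatives. It was 2 (Ccng1 and Phlda3) with 5 or more Mki67 UMIs as the top class, which left 2 barcodes per library, and 1 (Ccng1) within barcodes of 10000 to under 20000 UMIs, an alternative chosen after seeing the data, on 1 and 2 Ccng1 UMIs. The mitochondrial limit and a fold of 2 could not raise the count of 0 by Mki67 level. Ccng1 in the humanized library reversed to 1.39 with the 5 UMI class and to 1.90 with classes from unthinned counts, which left 4 barcodes, on 1 and 2 Ccng1 UMIs. The median r of the target pairs lay between -0.0030 and 0.0059 for the wild-type and between -0.0037 and 0.0054 for the humanized library. The direction of Cdkn1a, Bax and Phlda3 by Mki67 level also turned under some bounds, in part as given with the results. With 5 or more Mki67 UMIs as the top class, Bax stood at 0.28 and 0.80. With classes from unthinned counts, Cdkn1a stood at 1.67 and -1.38, Bax at -1.17 and 0.09 and Phlda3 at -0.34 and 1.45. With unthinned counts the r of Bax and Phlda3 was 0.086 and 0.071. A limit of 10% mitochondrial UMIs removed 0 barcodes. Depth limits Trp53inp1, Zmat3 and Ccng1 in small classes.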
